A study of Gallus gallus with 8 samples.

Results

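Ascitic livers of male chickens were set against healthy male livers, gene by gene. The comparison used the 4 male pools of the 8 pools in the series, 2 ascitic and 2 healthy, and covered 13766 tested genes of the 14634 in the deposited table. Each pool combined liver RNA of 4 birds, so a value describes 4 livers at a time and the spread between single birds was not measured. Both male groups were meat-type chickens brought down to 24 °C by day 21 and kept at 18 °C from day 22 until the experiment closed on day 48, on a high-energy diet, and they differed by label in having ascites (water belly) or being healthy. A further label entry reads day 42 without saying what it marks, and the labels name no strain. The birds were sorted by disease state, not assigned to it, so the values below are differences between sick and healthy males under cold, not effects of cold. Nothing in the labels says which birds shared a pen or litter, so p-values measure the spread between pools.

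The liver secretes most plasma proteins, makes bile and lipoproteins, and handles glucose, fat and nitrogen. In fast-growing meat-type birds, ascites follows high pressure in the lung circulation and failure of the right heart, and blood then backs up into the liver. Genes in the deposited table carry Ensembl IDs without names, and 0 of these IDs matched the reference table of chicken genes. The label liver could therefore not be checked against marker genes, and genes are described here by size, abundance and behaviour in each pool, with 4 of them given by ID. In RNA from whole tissue, fewer cells of a type and less RNA per cell cannot be told apart.

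Depth was similar across the male pools. The ascitic pools held 30629575 and 30416381 reads, and the healthy pools held 30599393 and 27265841. A count of 0 allows a share of up to 9.79e-06% in ascitic male 1 and up to 1.1e-05% in healthy male 2, limits that cover counting error only. Values below are normalized reads, which are reads divided by the size factor of the pool, or differences of the deposited log2 values. Size factors differed more than depth, at 1.09 and 1.56 in ascitic males 1 and 2 and 0.928 and 0.946 in healthy males 1 and 2. The deposited scale compresses low levels, so that a log2 difference there understates the change of a scarce gene.

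The pool labelled healthy male 1 carried transcripts that were otherwise limited to female pools, and this touches every value that rests on the healthy males. The transcripts were 11 genes that reached 50 or more normalized reads in each of the 4 female pools and stayed at 5 or less in ascitic male 1, ascitic male 2 and healthy male 2. Their sums were 6.43 normalized reads in ascitic male 1, 3.85 in ascitic male 2, 5585 in healthy male 1 and 3.17 in healthy male 2. In female pools the sums were 6493 and 8969 in ascitic females, and 14030 and 14499 in healthy females. All 11 genes were read in healthy male 1, from 21.5 to 2128 normalized reads, and the highest value in the other 3 male pools was 4.59. The nearest gene outside the male limit reached 10.6 normalized reads in 1 of those 3 pools, and the nearest outside the female limit reached 47.8 in its lowest female pool. The choice put healthy male 2 at the level of the ascitic males for these genes, so their median log2 difference of 0 against healthy male 2 is fixed by it, and they could hardly be called in the comparison of ascitic with healthy males. Against healthy male 1 the median log2 difference was -2.59.

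**Figure D1:**
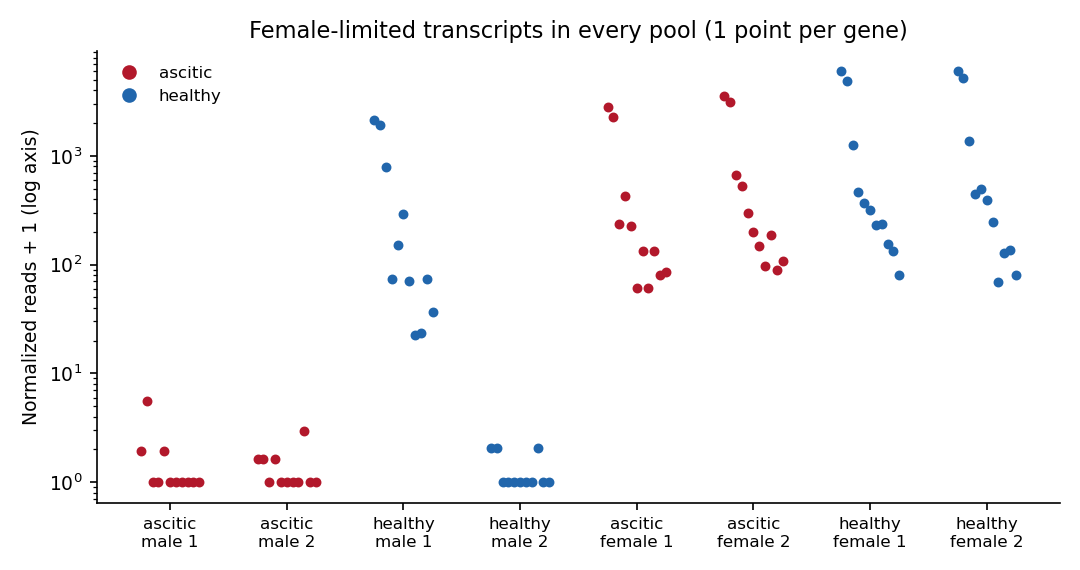
Normalized reads plus 1 (log axis) of the 11 female-limited genes in each pool, 1 point per gene, with ascitic pools in red and healthy pools in blue. Healthy male 1 lies between 21.5 and 2128 normalized reads before adding 1, while no gene exceeds 4.59 in the other 3 male pools.

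Healthy male 1 also had the most genes apart from all other male pools, and those lying above include these 11. Genes over 1 log2 unit above all other male pools numbered 33 in ascitic male 1, 77 in ascitic male 2, 187 in healthy male 1 and 70 in healthy male 2. Genes as far below all other male pools numbered 45, 76, 155 and 53 in the same pools. The 187 genes included 13 of the 100 most abundant and took 23.6% of the reads of healthy male 1, against 9.51% in ascitic male 1, 7.84% in ascitic male 2 and 11.6% in healthy male 2. Of the 187 genes, 6 (3.21%) were among those called between ascitic and healthy males, against 3.32% of all tested genes. Of the 155 genes below all other male pools, 11 were called. Both choices ask for a distance between the 2 healthy male pools, which widens the spread used by the test. These numbers are therefore partly set by the choice. The female pools entered this choice only through the filter, which asks for reads in 2 or more of the 8 pools. A gene with few reads in the other male pools could pass it only through a female pool, so its female values are partly set by the filter. The 187 genes lay at a median of 2.28 log2 units above the median of the other male pools in healthy female 2. In healthy female 1 they lay 0.74 above it. In the ascitic female pools these medians were -0.01 and 0.09. For the 70 genes of healthy male 2 the like medians were 0.73 in healthy female 1 and 0.31 in healthy female 2. They were -0.24 and 0.92 for the 33 genes of ascitic male 1, and -0.02 and -0.01 for the 77 of ascitic male 2. The value in healthy female 1 was thus not particular to the genes of healthy male 1.

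Genes that differ by sex among ascitic birds gave a second reading of healthy male 1 that uses no healthy pool for the choice of genes. Both ascitic female pools lay over 1 log2 unit above both ascitic male pools for 99 genes, the 11 female-limited ones among them. For these 99 genes healthy male 1 exceeded healthy male 2 by a median of 0.36 log2 units, or 0.28 without the 11, against 0.00 over all tested genes. Healthy male 1 was over 1 log2 unit above healthy male 2 for 36 of the 99 genes (36.4%), and for 25 of the 88 (28.4%) without the 11, against 3.39% of all tested genes. For the 59 genes that were over 1 log2 unit lower in ascitic females than in ascitic males, the median difference between the healthy male pools was 0.01.

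Single ascitic and healthy male pools differed for many more genes than pools of the same group did. The log2 difference passed 1, a 2-fold change, for 2356 genes between ascitic male 1 and healthy male 1 and for 2057 between ascitic male 1 and healthy male 2. It did so for 3382 genes between ascitic male 2 and healthy male 1 and for 2099 between ascitic male 2 and healthy male 2. Inside the groups the numbers were 466 genes between the ascitic pools and 961 between the healthy pools. Changes over 4-fold numbered 340 to 559 across the 4 pool pairs of unlike status, against 18 between the ascitic pools and 54 between the healthy pools. Ascitic male 2 against healthy male 1 was the widest of the 6 pool pairs, and both pairs with healthy male 2 were narrower than their counterparts with healthy male 1.

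**Figure D2:**
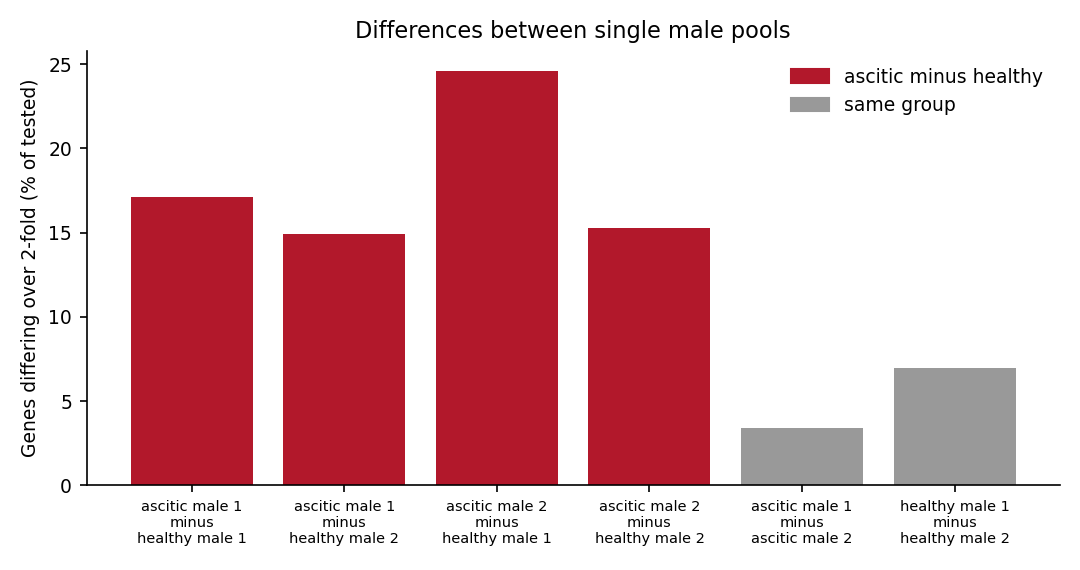
Percent of the 13766 tested genes that differ over 2-fold between single male pools, with red bars for ascitic minus healthy and grey bars for 2 pools of the same group. The red bars run from 14.9% to 24.6%, and the grey bars reach 3.39% in ascitic and 6.98% in healthy males.

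The direction of these changes was then read in pools that had not been used to pick the genes. In ascitic male 1 against healthy male 2, 1162 genes were over 2-fold higher. In ascitic male 2 against healthy male 1, pools not used in that choice, 89.0% of the 1162 were also higher and 54.7% were over 2-fold higher, against 51.0% and 13.1% of all tested genes. Of the 895 genes over 2-fold lower in the first pair, 81.7% were lower in the second and 45.8% were over 2-fold lower, against 49.0% and 11.4% of all tested genes. Chosen the other way round, in ascitic male 2 against healthy male 1, a smaller share recurred over 2-fold in ascitic male 1 against healthy male 2, with 35.1% of 1810 higher and 26.1% of 1572 lower genes, against 8.44% and 6.50% of all tested genes.

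The other split into disjoint pairs set ascitic male 2 against healthy male 2 and ascitic male 1 against healthy male 1. Of 1169 genes over 2-fold higher in ascitic male 2 than in healthy male 2, 1110 were higher and 59.6% were over 2-fold higher in ascitic male 1 than in healthy male 1, against 51.0% and 9.94% of all tested genes. Of the 930 genes over 2-fold lower, 92.8% were lower and 52.4% over 2-fold lower in the other pair, against 49.0% and 7.18% of all tested genes. Chosen in ascitic male 1 against healthy male 1, over 2-fold changes recurred in the pair with healthy male 2 for 51.0% of 1368 higher and 49.3% of 988 lower genes, against 8.49% and 6.76% of all tested genes.

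For genes chosen as over 4-fold with healthy male 2 as the control, the direction came back in nearly every case in the other pair. A change over 4-fold came back there in 52.0% to 61.5% of cases. Of 192 genes over 4-fold higher in ascitic male 2 than in healthy male 2, 191 were higher in ascitic male 1 than in healthy male 1, and 118 were over 4-fold higher there, against 1.69% of all tested genes. Of 156 genes over 4-fold lower, 154 were lower in the other pair and 85 over 4-fold lower, against 1.44% of all tested genes. In ascitic male 1 against healthy male 2, 196 genes were over 4-fold higher, of which 192 were higher and 102 over 4-fold higher in the other pair, against 2.06% of all tested genes. Of 144 genes over 4-fold lower there, 137 were lower and 76 over 4-fold lower in the other pair, against 2.00% of all tested genes. Chosen in ascitic male 2 against healthy male 1, fewer changes over 4-fold recurred in ascitic male 1 against healthy male 2. The shares were 35.9% of 284 higher and 27.6% of 275 lower genes, against 1.42% and 1.05% of all tested genes. Chosen in ascitic male 1 against healthy male 1, 50.6% of 233 higher and 42.9% of 198 lower genes recurred over 4-fold, against 1.39% and 1.13%. Sizes were smaller in the pair not used for the choice, with a median log2 difference of 1.10 there and 1.37 in the pair that chose the 1162 genes. Across all 13766 genes the differences of the first 2 disjoint pairs had a Pearson correlation of 0.53 (Spearman 0.41), and those of the other 2, which set pools of the same number against each other, one of 0.71 (Spearman 0.66). Genes are not independent replicates, and the pairs share the scaling of the table.

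In the test over all genes, limma called 457 genes (3.32% of those tested) at an adjusted p under 0.05, with 279 higher (2.03%) and 178 lower (1.29%) in ascitic males. The 279 higher genes had log2 fold changes between 1.22 and 5.66, with a median of 1.94 and quartiles of 1.66 and 2.46. The 178 lower genes lay between -4.94 and -1.23, with a median of -2.07 and quartiles of -2.61 and -1.71. All of them exceeded a 2-fold change, which the threshold itself favours at 2 pools a group, since the median standard error was 0.33 for the higher and 0.35 for the lower genes. Changes exceeded 4-fold for 122 higher and 98 lower genes, 8-fold for 39 and 18, and 16-fold for 9 and 7. Scaled by total reads, 450 higher and 95 lower genes passed. Lower genes were over 4-fold in 55.1% of cases and higher genes in 43.7%. All these folds are read from the deposited log2 values, which understate the change of scarce genes. The higher genes were the scarcer set, so the shares over 4-fold do not compare their changes in normalized reads with those of the lower genes.

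The pools of each group were separate for every called gene. Both ascitic male pools lay above both healthy male pools for 279 of 279 higher genes and below them for 178 of 178 lower genes. Over all tested genes, the ascitic pools lay above the healthy pools for 28.6% and below them for 26.1%, so that separation by itself was common here. The nearest ascitic and healthy pools were over 1 log2 unit apart, ascitic higher, for 3.92% of all tested genes and for all 279 higher genes. They were as far apart with ascitic lower for 2.47% of all tested genes and for 177 of the 178 lower genes. The median gap between the nearest pools was 1.62 log2 units for the higher and 1.64 for the lower genes. Within a group the called genes varied far less, by a median of 0.27 log2 units between ascitic and 0.25 between healthy pools for the higher genes, and 0.38 and 0.30 for the lower genes. These gaps describe the calls and do not support them, because a small spread within groups is what the test selects.

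**Figure D3:**
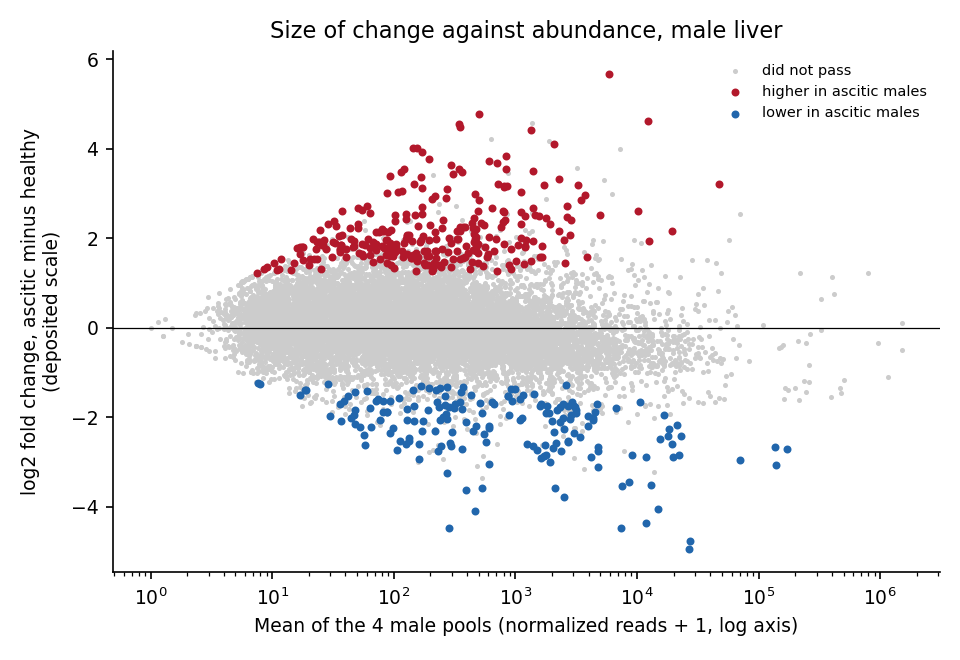
Log2 fold change of ascitic minus healthy males on the deposited scale against the mean of the 4 male pools in normalized reads plus 1 (log axis), 1 point per tested gene. The 279 higher genes (red) start at 1.22 and the 178 lower genes (blue) at -1.23, and the lower genes extend further towards abundant transcripts.

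Against healthy male 2 alone, every called gene held its direction and stayed over 2-fold on average. Both ascitic pools lay over 1 log2 unit above healthy male 2 for 279 of the 279 higher genes, and over 1 log2 unit below it for 177 of the 178 lower genes. Over all tested genes these shares were 5.67% and 4.02%, and the like shares against healthy male 1 were 7.63% and 5.48%. The median log2 difference to healthy male 2 was 1.90 for the higher and -2.04 for the lower genes, against 2.01 and -2.08 to healthy male 1. On the deposited scale, changes over 4-fold numbered 118 higher and 92 lower genes against healthy male 2, and 141 and 97 against healthy male 1. Healthy male 1 lay nearer to the ascitic pools than healthy male 2 did for 109 of the 279 higher and 78 of the 178 lower genes. Since healthy male 2 took part in the test that called these genes, the counts describe them and are no second test.

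Whether calls were made against healthy male 2 alone depended on which other pools set the spread. With healthy male 1 left out of the fit of 8 pools, 0 genes passed in limma, 1500 had an unadjusted p under 0.05 (897 higher and 603 lower), and the 457 genes all lay among these 1500 in their own direction. The smallest adjusted p was then 0.0763, and limma-voom was not run on these pools. With healthy female 2, whose highest Spearman correlation with any pool was 0.923, against 0.962 or more for each other pool, left out as well, 1373 genes (9.97%) passed, 779 higher and 594 lower, including 452 of the 457 (98.9%, which is 32.9% of the 1373). With the 3 male pools alone, the 2 ascitic ones and healthy male 2, 854 genes (6.2%) passed, 510 higher and 344 lower, including 420 of the 457 (91.9%, or 49.2% of the 854). In these fits the lone healthy male pool is assumed to vary like the pools of the other groups. Without healthy female 2 as well, healthy female 1 is also alone, so the spread comes from the ascitic pools only. In the fit of 3 pools it comes from the ascitic males only, with 1 residual degree of freedom. The ascitic male pools differed from each other over 2-fold for 466 genes, and the healthy male pools for 961. The number of calls also fell to 13 (0.0944%) without healthy male 2, 5 without ascitic male 1, 0 without ascitic male 2 (smallest adjusted p 0.0794, with 1382 at an unadjusted p under 0.05) and 154 without either ascitic female pool. It rose to 1769 without healthy female 1 and 1763 without healthy female 2, although female pools do not enter the male log2 fold changes.

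Among called genes with an average of 1 CPM or more, ENSGALG00000016785 had the highest log2 fold change on the deposited scale. It had 11367 and 11655 normalized reads in ascitic males 1 and 2, against 152 in healthy male 1 and 247 in healthy male 2. The ascitic male pools lay close together and far above both healthy male pools. The female pools, which enter the spread only, held 4338 and 468 normalized reads in ascitic and 141 and 95.1 in healthy females. Means were 11511 ± 204 in ascitic and 199.6 ± 67.5 normalized reads in healthy males (SD, n = 2 each), a ratio of 57.7, which was 75.8 against healthy male 1 and 46.5 against healthy male 2 alone. The log2 fold change was 5.66 (standard error 0.83; limma, adjusted p = 0.0162). With male pools only, its standard error was 0.29. Against healthy male 2 alone it was 5.36, with an adjusted p in limma of 0.152 in the fit of 7 pools, 0.175 without healthy female 2 as well and 0.000463 with 3 male pools.

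ENSGALG00000028284 was hardly read in healthy males and readily read in ascitic males. It had 678 and 1299 normalized reads in ascitic males 1 and 2, against 4.31 in healthy male 1 and 16.9 in healthy male 2. The second pool was the higher one in both groups, and the lower ascitic pool still lay far above the higher healthy pool. Means were 988 ± 439 in ascitic and 10.6 ± 8.92 normalized reads in healthy males (SD, n = 2 each), a ratio of 93.1, which was 229 against healthy male 1 and 58.4 against healthy male 2 alone. Its log2 fold change was above that of ENSGALG00000016785 in limma-voom, at 6.67 against 5.89, and as log2 of normalized reads plus 1, at 6.59 against 5.88. On the deposited scale it was 4.78 (standard error 0.52; limma, adjusted p = 0.00961). Against healthy male 2 alone it was 4.45, with an adjusted p in limma of 0.114 in the fit of 7 pools, 0.00324 without healthy female 2 as well and 0.000482 with 3 male pools.

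By the mean of deposited log2 values the largest fall was that of ENSGALG00000043779, one of the more abundant liver transcripts of healthy males. It had 3305 and 735 normalized reads in ascitic males 1 and 2, against 66839 in healthy male 1 and 36238 in healthy male 2. Both groups were spread, and the higher ascitic pool still lay below the lower healthy pool. Means were 2020 ± 1817 in ascitic and 51538 ± 21638 normalized reads in healthy males (SD, n = 2 each), a ratio of healthy over ascitic of 25.5, which was 33.1 with healthy male 1 and 17.9 with healthy male 2 alone. The log2 fold change was -4.94 (standard error 0.75; limma, adjusted p = 0.0162). Against healthy male 2 alone it was -4.50, with an adjusted p in limma of 0.162 in the fit of 7 pools, 0.0601 without healthy female 2 as well and 0.0127 with 3 male pools.

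ENSGALG00000035803 fell by a similar amount, or by more as a ratio of means or against healthy male 1 alone (a log2 difference of -5.65, and -5.38 for ENSGALG00000043779), and its healthy pools lay far apart. It had 1825 and 1411 normalized reads in ascitic males 1 and 2, against 82441 in healthy male 1 and 23957 in healthy male 2. The ascitic pools lay close together. Means were 1618 ± 293 in ascitic and 53199 ± 41355 normalized reads in healthy males (SD, n = 2 each). The ratio of healthy over ascitic was 32.9 with both healthy pools, 51.0 with healthy male 1 and 14.8 with healthy male 2. The female pools, which do not enter the male log2 fold change, held 11717 and 7228 normalized reads in ascitic and 135526 and 158299 in healthy females. This gene is thus among the 99 that were over 1 log2 unit higher in both ascitic female than in both ascitic male pools. For those 99 genes healthy male 1 lay above healthy male 2 by a median of 0.36 log2 units. The log2 fold change was -4.76 (standard error 0.56; limma, adjusted p = 0.0108). Against healthy male 2 alone it was -3.87, with an adjusted p in limma of 0.0857 in the fit of 7 pools, 0.000739 without healthy female 2 as well and 0.000865 with 3 male pools. With any 1 of the 4 male pools left out of the fit of 8, the other 3 genes given by ID no longer passed, and ENSGALG00000035803 passed without healthy male 2 but not without healthy male 1 or either ascitic male pool (limma, largest adjusted p over all alternatives 0.175 for these 4 genes).

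**Figure D4:**
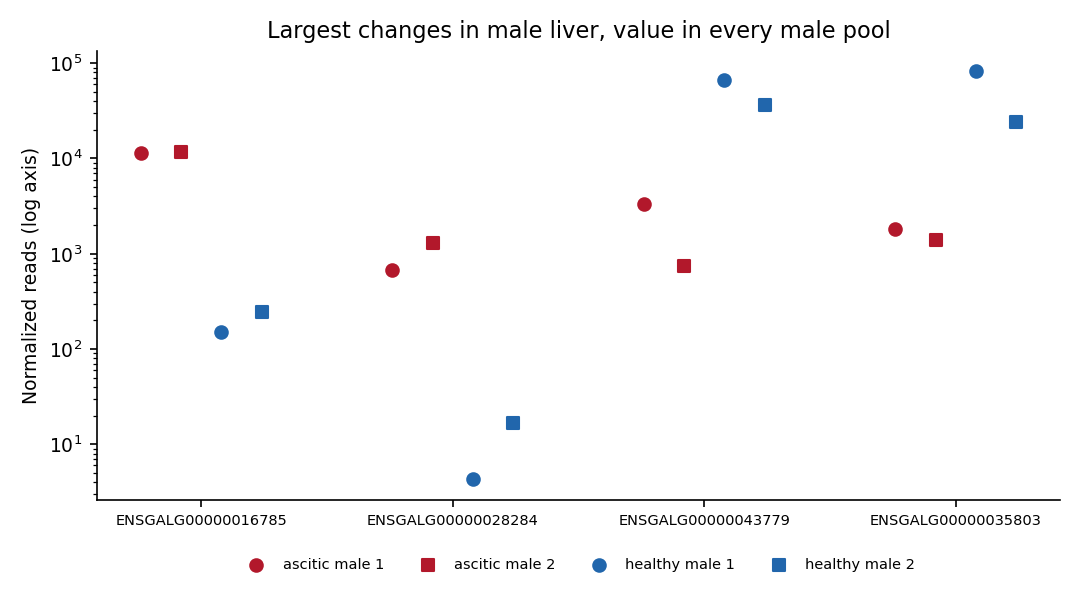
Normalized reads (log axis) of the 4 genes given by ID in every male pool, with ascitic pools in red and healthy pools in blue. The ascitic and healthy pools do not overlap for any of the 4 genes, and the healthy pools are furthest apart, as a difference of normalized reads, for ENSGALG00000035803 at 82441 and 23957.

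Some higher genes were close to silent in healthy male liver. Of the 279 higher genes, 54 had an average of over 5 CPM (reads scaled by the total of the pool) in ascitic males and under 1 CPM in healthy males, while 9 of the 178 lower genes went the opposite way. No read at all was found in either healthy male pool for 14 of the higher genes. Average levels of these 14 in ascitic males had a median of 32.5 and a maximum of 73.0 normalized reads. A count of 0 allows 3 reads over both healthy pools (1.60 normalized reads). The average levels in ascitic males were 8.14-fold or more above that limit, at a median of 20.3-fold. This limit covers the counting error of a single gene in the healthy pools only, not the spread between pools. Conversely, 2 lower genes had no read in either ascitic pool. They averaged 13.4 and 13.9 normalized reads in healthy males, 11.8-fold or more above the like limit of the ascitic pools (1.13 normalized reads). The like shares over all tested genes are not reported here, so the counts of 54, 9, 14 and 2 genes cannot be judged against them. A gene without a read in 1 male group could pass the filter only through pools outside that group.

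Higher and lower genes differed in abundance. Higher genes had a median of 314 normalized reads in ascitic and 51.7 in healthy males, and lower genes had 206 in ascitic and 1010 in healthy males. Averaged over the 4 male pools, the medians were 190 normalized reads for the higher genes, 605 for the lower genes and 171 for all tested genes. Of the 100 most abundant genes, which averaged at least 26920 normalized reads, 1 was higher and 5 were lower in ascitic males. Among the next 900, 12 were higher and 42 lower, among the 4000 after those 97 and 59, and among the 8766 scarcer genes 169 and 72. The share called lower thus came to 5%, 4.67%, 1.48% and 0.82% from the most to the least abundant class, and the share called higher to 1%, 1.33%, 2.42% and 1.93%. Counting precision and the compression of scarce genes also change with abundance, and their part in these shares was not tested. The shares hold for the deposited size factors. Scaled by total reads, 450 higher and 95 lower genes passed, and their shares by class are not reported here.

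As classes, abundant transcripts were lower in ascitic males relative to scarce ones. On the log2 scale the median change came to -0.55 for the 100 most abundant genes, -0.44 for the next 900, -0.12 for the next 4000 and 0.10 for the rest. With healthy male 2 alone as the control these medians were -0.54, -0.41, -0.09 and 0.09, and with healthy male 1 alone -0.58, -0.44, -0.14 and 0.13. Ascitic male 2 carried more of the shift than ascitic male 1. For the 100 most abundant genes the median in ascitic male 1 was -0.28 against healthy male 1 and -0.20 against healthy male 2. In ascitic male 2 it was -0.85 against healthy male 1 and -0.84 against healthy male 2. Ascitic male 1 lay 0.65 log2 units above ascitic male 2 in that class, so that the ascitic pools differed from each other by more than the shift in ascitic male 1. Scaled by total reads, the median of all genes moved from 0.01 to 0.31, and the 4 classes had medians of -0.16, -0.05, 0.26 and 0.37. Relative to all genes the order of the classes was the same under both scalings. A change of size factors moves most genes by nearly the same amount, so that order could hardly change.

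**Figure D5:**
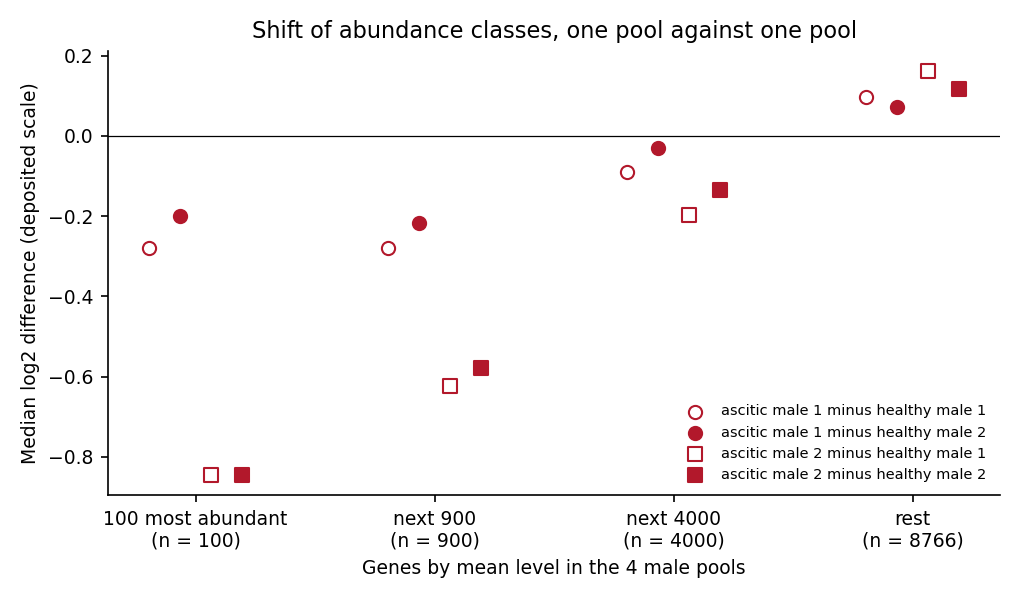
Median log2 difference of 1 ascitic against 1 healthy male pool on the deposited scale, for 4 classes of genes by mean level in the male pools. Circles are ascitic male 1, squares ascitic male 2, open symbols healthy male 1 and filled symbols healthy male 2; in the 100 most abundant genes the squares lie near -0.84 and the circles at -0.28 and -0.20.

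In reads, the called genes were a small share of the liver transcriptome. The 279 higher genes took 1.51% and 1.99% of reads in ascitic males 1 and 2, against 0.191% and 0.239% in healthy males 1 and 2. The 178 lower genes took 1.22% and 1.04% in ascitic males, against 5.87% and 5.46% in healthy males. Means were 1.75% ± 0.34 in ascitic and 0.215% ± 0.0345 in healthy males for the higher genes, and 1.13% ± 0.12 in ascitic and 5.66% ± 0.29 in healthy males for the lower genes (SD, n = 2 each). These genes were called on the same pools, so the shares are descriptions. Lower genes over 4-fold held most of that share, with 0.93% of reads in ascitic and 5.13% in healthy males. Of the reads of healthy males, 3.07% lay in 5 of the lower genes and 3.71% in 10 of them.

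The most abundant transcripts took similar, overlapping shares of reads in ascitic and healthy males. The 10 most abundant genes of each pool took 34.6% and 28.3% of reads in ascitic males 1 and 2, against 32.4% and 29.1% in healthy males 1 and 2. The 50 most abundant took 55.0% and 46.1% in ascitic and 55.3% and 51.6% in healthy males. The ascitic pools lay on both sides of healthy male 2 in each case (exact two-sided permutation test, p = 1 and p = 0.667). With 2 pools a group that test cannot go below 0.333.

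In females the called genes moved the same way for 272 of the 279 higher and 158 of the 178 lower genes, with median female log2 fold changes of 1.09 and -1.06. The like share over all tested genes is not reported here, so these counts cannot be judged against it. The difference between the sexes was tested gene by gene as an interaction, and 0 genes passed in limma and 0 in limma-voom (limma, smallest adjusted p = 0.249, 835 genes at an unadjusted p under 0.05). For ENSGALG00000016785 the interaction, male minus female, was 2.35 log2 units (standard error 1.17; limma, adjusted p = 0.83). Among genes over 1 log2 unit apart between the sexes in ascitic birds, 27 of the 99 lower in males (27.3%) were also called lower in ascitic than in healthy males, against 1.29% of all tested genes. Of the 59 genes higher in ascitic males than in ascitic females, 32 (54.2%) were called higher, against 2.03% of all tested genes. Both choices use the ascitic male pools, so these overlaps are descriptions.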

How the data were processed

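Liver poly(A) RNA of chicken was measured in 8 pools. Per the labels' protocols, 32 livers were extracted, RNA of 4 birds was combined per pool, and libraries were made from RNA whose integrity number exceeded 7.5. Among other tools, the submitters' processing notes name TopHat2 2.0.9, HTSeq 0.6.1 and DESeq2 1.22.1, without role or order. The sources used here give no genome build, annotation or strandedness.

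The deposited values are log2 values, although the table is named as counts. All columns share a lowest value of 4.11, and the values fit the formula of a variance-stabilizing transformation. Inverting it gave whole reads for 100% of values within 0.01 of a read (largest deviation 0.0032), and size factors within 0.998 and 1.002 times median-ratio factors of these reads. No gene has fewer than 6 reads over the 8 pools.

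The main fit was limma 3.58.1 (R 4.3.3, statmod 1.5.0) on the deposited log2 values, with 4 group means over all 8 pools, the variance trend and robust options, because 2 against 2 pools leave 2 residual degrees of freedom. The 4 female pools enter the spread only. The filter kept genes that, at median library size, reached 10 reads in 2 or more pools and that had 15 reads in all. Benjamini-Hochberg adjustment ran over the 13766 genes left, with a threshold of 0.05. The fit was also run on simulated counts in which a gene had the same spread in all 8 pools. That setting cannot show how the fit behaves where pools differ in spread.

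By rule, genes to be named were called, averaged 1 CPM or more in male pools, had no overlap of pools, and ranked in the top 10 by size either way. Without names this was limited to 2 in each direction, and lists of marker genes were not analysed here. The gene groups, thresholds and comparisons were chosen with earlier results of these data known. Alternatives were other size factors, filters, scales, weights, a replicate block, a fold of 1.5, male pools only and each pool left out. The fit of 3 male pools and the limma-voom interaction were added after seeing the data.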

Additional observations from a re-analysis of the deposited data

Results flagged for a closer look

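For 8 measures of whole pools, the highest and lowest of the 4 male pools were tested for their distance from the rest, as a share of the range (Dixon test at its 95% critical value). Chance gives about 1 in 20 sets for normal values, and the 4 male pools mix ascitic with healthy birds. Healthy male 1 was far from the others in the 11 female-limited genes, with 5585 normalized reads, against 6.43 in ascitic male 1, 3.85 in ascitic male 2 and 3.17 in healthy male 2. These genes were chosen for low values in the other 3 male pools, with earlier results of these data known. The Dixon result for them follows from that choice, so it is a description and no separate test. What brought female-limited transcripts into that pool was not tested. Healthy male 2 was far from the others in total reads, with 27265841, against 30629575 and 30416381 in ascitic males and 30599393 in healthy male 1.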

How the results depend on the processing

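Each of the 457 called genes kept its direction in every alternative in which it was tested. That was largely fixed in advance, since their male pools do not overlap and many alternatives leave the male log2 fold changes unchanged. The number of calls depended on the pools in the fit. Of 21 alternatives, 7 gave a number within 1.5 times 457. The calls (higher and lower) were 1079 (651 and 428) with male pools only, 1373 (779 and 594) without healthy female 2 and healthy male 1, 854 (510 and 344) with 3 male pools, 991 (543 and 448) with limma-voom and sample weights and 90 (56 and 34) against a fold of 1.5, which asks for a larger change. Leaving out a male pool leaves 1 pool in its group, which by design raises the standard error of the male log2 fold change. Leaving out a female pool also leaves 1 pool in its group, which then adds nothing to the spread, whichever of its pools is dropped. The cause of the other shifts was not tested. With 1 pool left out, they ran from 0 to 1769, from 0 to 1026 higher and from 0 to 743 lower. Scaling by total reads gave 450 higher and 95 lower genes, so the split of 279 to 178 depends on the scaling.

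No label pairs pools by replicate number. Pools with the same number deviated from their group means with correlations of -0.42 to 0.32 across groups, 0.32 being that of ascitic with healthy males. With the replicate block 198 genes passed, 125 higher and 73 lower.

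Genes over 2-fold without overlap of pools numbered 1081 higher and 746 lower. They became 1912 and 428 with total reads, and 1147 were lower with healthy male 1 alone. With total reads the class medians became -0.16, -0.050, 0.26 and 0.37, the third turning its sign. The difference in read share, 1.54 percentage points for higher and -4.53 for lower genes, became 2.97 and -3.38 with total reads and 2.20 for higher genes with upper quartile factors, where other genes are called.

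The 4 genes given by ID kept their direction in 21 of 21 alternatives each, which the lack of overlap of their pools largely fixed. They failed the threshold in 6 for ENSGALG00000016785, 4 for ENSGALG00000028284, 5 for ENSGALG00000043779 and 3 for ENSGALG00000035803, mostly with a male pool left out (largest adjusted p in limma 0.175, 0.127, 0.162 and 0.142). Depth limits the scarce genes, where 3 reads are 1.93 to 3.23 normalized reads in a male pool.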
